A study of Bombyx mori with 2 samples.

Results

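Spliced loci that were assembled in only 1 of 2 silkworm wing buds are described here. A locus is a stretch of a scaffold where assembled transcripts of the libraries share at least 1 exon base on the same strand, with transcripts of unknown strand joining either, and it is spliced where any of its transcripts has 2 or more exons. Members were chosen by the assembled output itself, as spliced loci with a multi-exon transcript in one library and no transcript at all in the other. Of 25992 loci in all and 11817 spliced loci, 735 were members, 459 of them hindwing-only and 276 forewing-only, while 11082 spliced loci were assembled in both. Because the assemblies selected the members, their number, and the lack of a transcript in the other library, are a description and no finding.

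The buds came from *Bombyx mori* larvae of the Daizo strain in the IV instar, reared on mulberry leaves. The forewing buds were taken from the second thoracic segment and the hindwing buds from the third. Each library was made from 80 pooled wing buds, with 1 library per wing, so there were no replicates and no difference could be tested. Both wings share strain, stage, rearing and protocol, and no treatment or transgene was used. Depth was estimated at 43465500 hindwing and 37165500 forewing fragments, the former 1.17 times the latter. The assemblies number their loci without gene names, so members are given by scaffold, start, end and strand as deposited, what gene they belong to was not analysed here, and the labelled tissue could not be checked against marker genes.

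The wing buds of a moth larva are folded epithelial sacs that grow inside the body and form the wings of the adult, and the Hox gene Ultrabithorax sets the hindwing apart from the forewing. A spliced transcript carries a strand because introns begin and end with characteristic bases, which differ when read from the other strand. The library kit used here does not mark strand, so a fragment that lies within an exon carries none of its own, and the assembler gives it that of the spliced transcript it is placed in. Where neighbouring genes are transcribed toward each other and their ends meet, fragments between them can be placed in either. A transcript is assembled only where enough fragments cover it without a gap, so the lack of a transcript is not the lack of reads.

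Most members were weakly expressed. The level is given as FPM, fragments per 1000000 fragments of the library, which is the middle of the deposited confidence interval of FPKM multiplied by the exon length in kilobases and summed over the transcripts of the locus. Hindwing-only loci ranged from 0.276 to 1052 FPM with a median of 0.675, which is 29.3 fragments. Forewing-only loci ranged from 0.336 to 345 with a median of 0.847, or 31.5 fragments. Spliced loci assembled in both libraries had medians of 24.8 in the hindwing and 24.7 in the forewing library. Below 1 FPM lay 304 of 459 hindwing-only loci (66.2%) and 155 of 276 forewing-only loci (56.2%), against 4.09% and 3.84% of the spliced loci assembled in both. All hindwing-only loci together held 0.404% of the fragments of their library, and all forewing-only loci 0.238%.

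The background share of loci missing from the other library differed between spliced and unspliced loci, which were not matched for level. In the hindwing library 4.12% of 11139 spliced loci had no forewing transcript, and in the forewing library 2.49% of 11101 had no hindwing transcript. Among loci without an intron in either library these shares were 41.9% of 12729 and 16.4% of 8837. Hindwing-only loci made up 62.4% of the members (exact 95% interval 58.8% to 66.0%, counting error only). The deeper library thus held more one-library loci, and the part of depth in this balance was not tested. The interval takes loci as separate, though adjacent members can be pieces of the same gene. The lowest spliced locus stood at 0.276 among hindwing transcripts and 0.309 among forewing transcripts, or 12.0 and 11.5 fragments, and 8 hindwing-only loci lay below the forewing minimum. At the depth of the other library and an equal level, 265 hindwing-only loci (57.7%) and 115 forewing-only loci (41.7%) would have rested on under 30 fragments. That limit is no floor of the assembly, and the medians at their own depth were already 29.3 and 31.5 fragments. No such count is given for spliced loci assembled in both, so these counts do not show loci lost to depth.

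Sorted by level, the share of spliced loci assembled in 1 library fell at each step in both wings. Of hindwing spliced loci between 0.25 and 0.5 FPM, 60.9% had no forewing transcript (95% Wilson interval 54.8% to 66.6%). The share was 30.4% between 0.5 and 1, 6.11% between 1 and 2, 2.84% between 2 and 5, 1.92% between 5 and 10, and 0.801% at 10 or more (0.622% to 1.03%). In the forewing library it was 46.6%, 20.3%, 5.20%, 2.04%, 1.22% and 0.597% over the same steps. These intervals cover counting error within the libraries only.

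**Figure D1:**
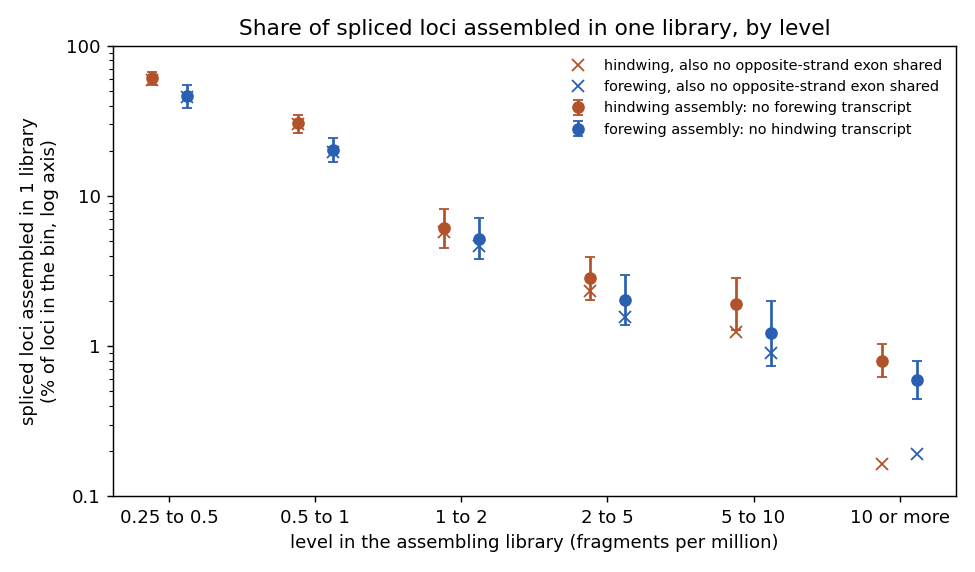
Percent of spliced loci assembled in 1 library (y axis, log scale) by level in the assembling library (x axis, FPM), hindwing in brown and forewing in blue. Circles with 95% Wilson bars are the members as defined, and crosses leave out members that share exon bases with an opposite-strand transcript of the other library. Circles and crosses nearly coincide at low levels and stand apart at 10 or more, where the circles are at 0.801% and 0.597% and the crosses at 0.163% and 0.190%.

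The members were short and had few exons. Of the hindwing-only loci 195 (42.5%) and of the forewing-only loci 147 (53.3%) had 2 exons, against 19.8% and 19.3% of spliced loci assembled in both. Their median exon length was 876 bases in the hindwing and 674 in the forewing, against 2429 and 2415 in loci of both libraries. The median span was 3215 and 2442 bases, against 7238 and 7151. Introns were close in size to those of other spliced loci, with a median over loci of 760 bases in hindwing-only and 741 in forewing-only members, and 755 and 757 in loci of both libraries. A single form was assembled for 409 hindwing-only (89.1%) and 251 forewing-only loci (90.9%), against 53.9% and 58.7%. Strands were evenly used, with 223 of 459 and 138 of 276 members on the plus strand.

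Long exon chains missing from the other library were rare. Among hindwing spliced loci with 2 exons 8.45% were members, and the share was 6.06% with 3 exons, 3.70% with 4 to 5, 1.72% with 6 to 9 and 0.589% with 10 or more. In the forewing library the shares were 6.58%, 3.54%, 1.65%, 0.727% and 0.297%. Only 9 hindwing-only and 5 forewing-only loci had 10 or more exons. In spliced loci of both libraries the median level rose with exon number, from 10.2 FPM with 2 exons to 52.7 with 10 or more in the hindwing and from 10.1 to 49.0 in the forewing, so the shares by level and by exon number are not separate descriptions. Among members the order was less regular. Hindwing-only loci had medians of 0.599, 0.558, 0.718, 1.28 and 10.1 FPM over the same classes, and forewing-only loci 0.774, 0.699, 0.874, 4.14 and 1.96.

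Position relative to other loci was much as for spliced loci in general. Of the hindwing-only loci 40 lay wholly inside the span of another locus, 81 ran across the end of one or enclosed one, and 338 (73.6%) overlapped none. Of the forewing-only loci 22 lay inside, 53 across and 201 (72.8%) outside. The members inside or across another locus made up 26.4% and 27.2%, against 25.7% and 25.6% of spliced loci assembled in both. Among members of at least 5 FPM, 78.0% of the hindwing-only and 66.1% of the forewing-only loci were inside or across another locus. At the same level it was 28.1% of 8479 hindwing and 28.0% of 8537 forewing spliced loci assembled in both.

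Most of the strongest members lay over exons that the other library carried on the opposite strand. Exon bases were shared with a transcript of the other library on the opposite strand by 68 hindwing-only loci (14.8%) and 48 forewing-only loci (17.4%). The background over spliced loci assembled in both was 9.31% in the hindwing and 9.4% in the forewing library, and 12.8% in each at 10 or more FPM. At that level, 47 of 59 hindwing-only loci (79.7%) and 30 of 44 forewing-only loci (68.2%) shared such bases. Below 1 FPM it was 5 of 304 and 4 of 155. The sharing loci held 84.4% of the fragments of all hindwing-only and 68.5% of those of all forewing-only loci. Their median level was 17.2 FPM in the hindwing and 19.2 in the forewing, and the median share of their exon bases found on the other strand of the other library was 63.0% and 82.9%. Of the 68 and 48 loci, 59 and 38 also shared exon bases with an opposite-strand transcript of their own library. In those cases the library that held the member had both strands assembled over some of its bases.

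**Figure D2:**
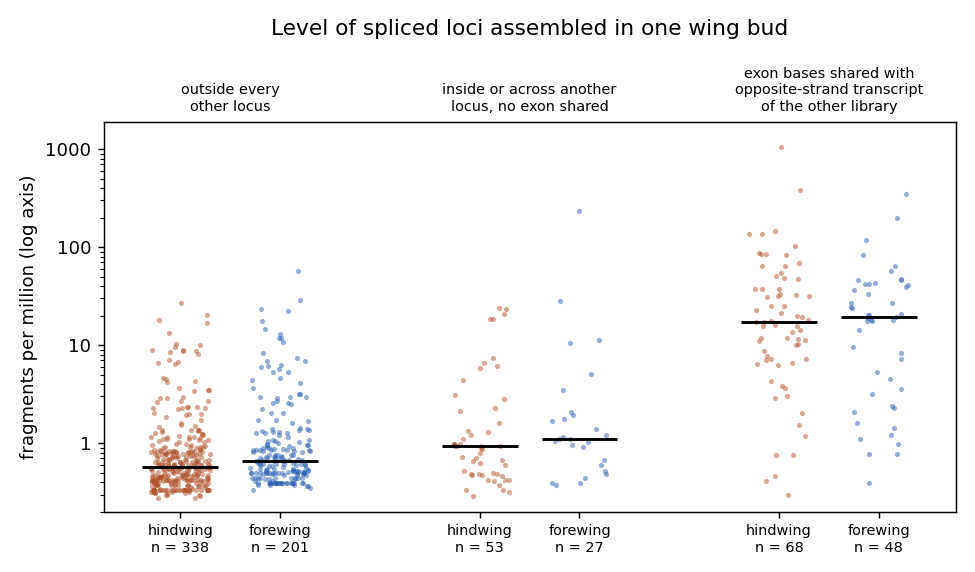
Level of each of the 735 members (y axis, FPM, log scale) in 3 classes of position, hindwing-only in brown and forewing-only in blue, with a black bar at each median. The 338 and 201 members outside every other locus have medians of 0.573 and 0.659, while the 68 and 48 members that share exon bases with an opposite-strand transcript of the other library have medians of 17.2 and 19.2.

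The member with the highest level was nscaf2886:2449-15284 on the plus strand, with 6 exons, 8846 exon bases and 1052 FPM in the hindwing library (deposited bounds 1042 to 1062). Its last and longest exon covers the end of a minus-strand locus, nscaf2886:10025-19874, over 2545 bases. In the forewing library that minus-strand locus stood at 1733 FPM with 3016 exon bases, and in the hindwing library at 483 with 682. The shared bases are 28.8% of the exon bases of the member, and its first 5 exons had no forewing transcript on either strand. The sum over both strands takes in every locus that becomes joined to the member when strand is ignored. By this sum the stretch held 1535 FPM in the hindwing and 1733 in the forewing library.

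The strongest forewing-only locus showed the same arrangement the other way round. It is nscaf3070:8206-18965 on the plus strand, with 4 exons and 345 FPM in the forewing library (338 to 351). It shares 1722 exon bases with the minus-strand locus nscaf3070:14574-34328, which has 7 exons in both libraries. That locus held 957 FPM in the hindwing and 514 in the forewing library, and the sums over both strands were 957 and 859. At nscaf2824:6852-15570 the forewing library had a minus-strand locus of 4 exons and 197 FPM (192 to 202), where the hindwing library had a plus-strand locus of 2 exons and 334. Of its exon bases 95.9% lay in that hindwing locus, and the sums were 874 in the hindwing and 943 in the forewing library.

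**Figure D3:**
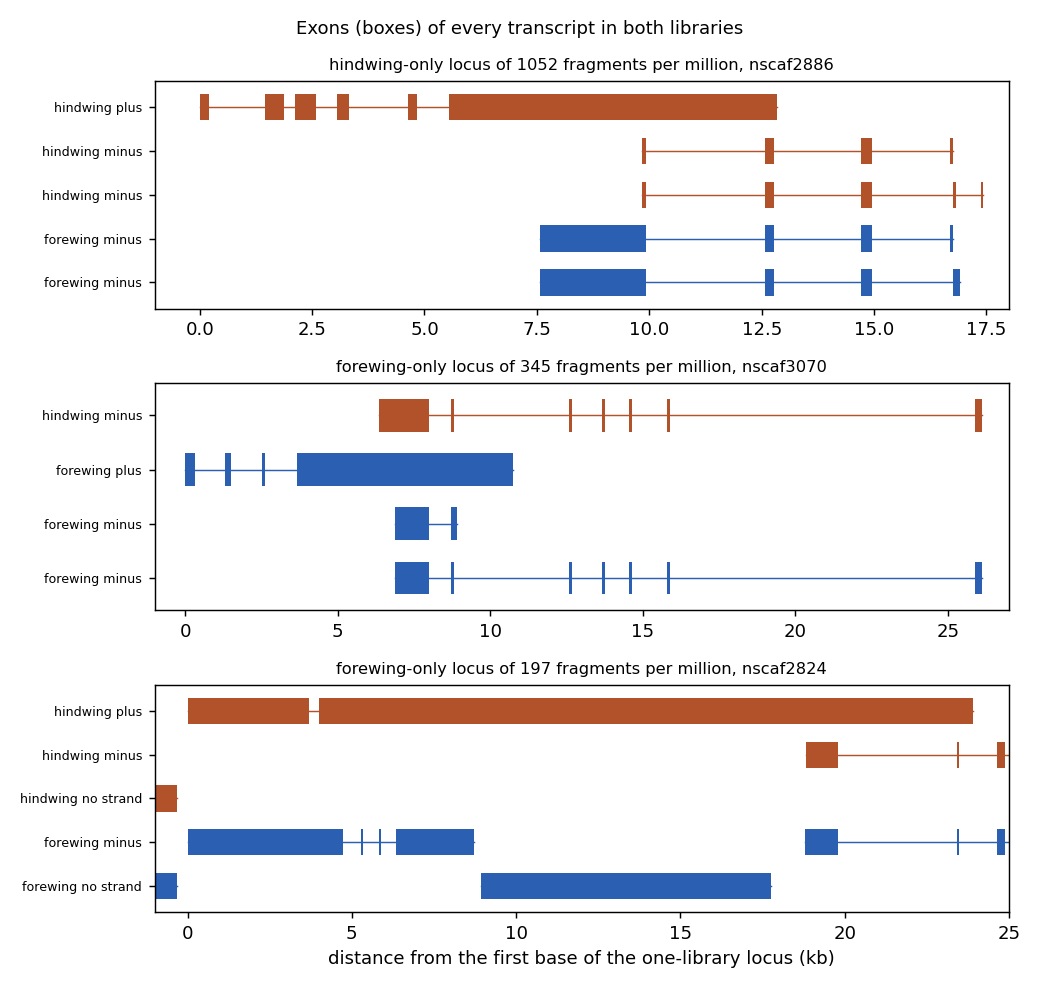
Exons (boxes) and introns (lines) of every transcript assembled around 3 members, hindwing in brown and forewing in blue, with strand at the left and distance from the first base of the member in kb on the x axis. In each map a long exon of the member lies over exons that the other library carries on the opposite strand.

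The other leading hindwing-only loci each had an opposite-strand counterpart too. At nscaf2888:8342917-8349693, minus strand, the hindwing library had 385 FPM, and the sums over both strands were 742 in the hindwing and 1131 in the forewing library, which is outside 1.5-fold. At nscaf1898:8584777-8605194, minus strand with 9 exons, the hindwing level was 145 and the sums were 674 and 707. The members nscaf2589:2633019-2639876 and nscaf2962:305004-309364, both minus strand, had hindwing levels of 137 and 136. Their sums were close between the libraries, 209 and 216 at the first and 176 and 193 at the second. All 5587 exon bases of the first were found on the plus strand in the forewing library. The remaining members of the leading 8 were nscaf2796:58009-62404 (plus, 102 FPM), nscaf2859:585723-599608 (minus, 87.3) and nscaf2847:6402893-6464811 (plus, 85.6). Their sums over both strands in the hindwing and forewing library were 165 and 154, 245 and 240, and 230 and 217.

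Among the leading 8 forewing-only loci 6 shared exon bases in this way. At nscaf2511:5613423-5616178, minus strand, the forewing level was 119 and 93.9% of the exon bases were on the plus strand in the hindwing library, with sums of 742 in the hindwing and 807 in the forewing. At nscaf1690:3777196-3784641, minus strand with 6 exons, the level was 82.4 and the sums were 499 and 420. At nscaf2865:5281860-5294743, plus strand, the level was 64.5 and the sums were 98.0 and 94.8. Here the opposite-strand locus was much shorter in the forewing library, 1840 exon bases against 13708 in the hindwing. At nscaf2795:1349878-1355503, minus strand, the level was 57.6 and the sums were 127 and 121.

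Over all 116 such members, the sum over both strands was within 1.5-fold between the libraries for 105, of which 62 were hindwing-only and 43 forewing-only. That is 90.5% of the 116, which have no lower limit of level, and at 10 or more FPM it was 72 of 77. Among 7627 spliced loci of both libraries at 10 or more FPM, 89.5% were within that range. Those are levels of single loci and not sums over both strands, so the shares are not of like measures. A member made up a median of 19.4% of the sum of its own library in the hindwing and 23.4% in the forewing, so the sum is set largely by its neighbours. With the member left out, the sums were within 1.5-fold for 50 hindwing-only and 29 forewing-only loci, and the median log2 of own over other library was -0.30 and -0.35. These sums were added after the data were seen. The median log2 of hindwing over forewing for the full sums was 0.02 for the hindwing-only and -0.01 for the forewing-only loci. The leading opposite-strand locus was also assembled in the library that held the member in 67 of 68 hindwing-only and 47 of 48 forewing-only cases. It was higher in the other library in 60 of 68 and 39 of 48 cases and longer there in 35 and 32. The same counts were not made for other opposite-strand pairs. A fragment placed in the member is not counted in its opposite-strand locus, and the part of this in the counts was not tested. An intron with both ends within 10 bases of an opposite-strand intron of the other library was seen in 4 of all 735 members.

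**Figure D4:**
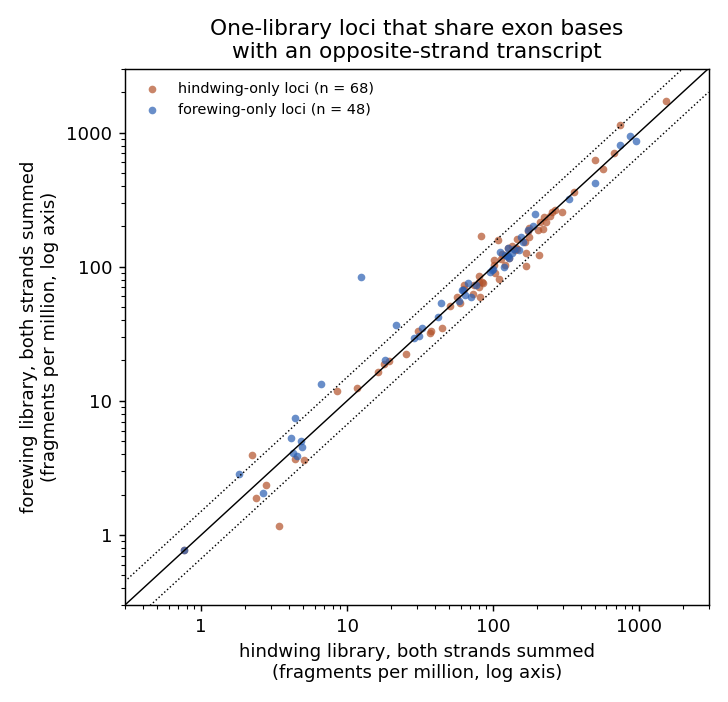
FPM summed over both strands for the 116 members that share exon bases with an opposite-strand transcript, hindwing library on the x axis and forewing library on the y axis, both log scales. The solid line marks equal levels and the dotted lines 1.5-fold in either direction, and 105 points lie between the dotted lines.

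Of these 116 members 4 were 2-fold or more apart after both strands were summed. The widest gap was at nscaf2888:9380351-9383876, a forewing-only plus-strand locus of 2 exons with 41.5 FPM. It shares 101 bases, 3.48% of its exon bases, with a minus-strand locus of the hindwing library, and the sums were 12.4 in the hindwing and 83.3 in the forewing library. The minus-strand locus itself was longer in the forewing library, 3315 exon bases against 624. There it held 41.8 FPM and shared 2798 exon bases with the member. At nscaf2529:4889003-4916794, a hindwing-only minus-strand locus of 13 exons at 10.1, the sums were 82.4 and 168. The other two were nscaf2986:5614778-5616075 (forewing-only, sums of 6.65 and 13.3) and nscaf2930:1790205-1793883 (hindwing-only, sums of 3.44 and 1.17).

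A small set of members had many fragments and shared no exon base with the other library on either strand. At 10 or more FPM this set held 12 members from the hindwing and 14 from the forewing, 0.163% and 0.190% of all spliced loci at that level, and 7 and 10 of them lay outside the span of every other locus. The hindwing-only ones reached 26.8 FPM, and the forewing-only ones ranged from 10.5 to 231. The strongest hindwing-only locus of this set was nscaf2853:1250362-1258941 on the plus strand, with 7 exons in 2 forms and 26.8 FPM (24.2 to 29.4), or 1165 fragments. It ended 93 bases from the nearest forewing exon on any strand. The next were nscaf2888:7942153-7963188 (minus, 11 exons, 24.0) and nscaf2176:2253309-2263368 (plus, 12 exons, 23.5), both with forewing exons within their span.

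Clear of every other locus lay nscaf2983:75217-76614 (plus, 2 exons) at 20.4 FPM (18.3 to 22.4) and nscaf2889:636413-676158 (minus, 17 exons) at 17.9 (16.2 to 19.6). The second has 4611 exon bases over a span of 39746 bases, and 778 fragments supported it. The nearest forewing exon was 4182 bases from the first and 2368 bases from the second. Both chains of exons had no assembled counterpart in the forewing library. Chosen after its values were seen, nscaf2986:4823054-4857353 (minus, 4 exons, 13.3 FPM) was the farthest of this set from the forewing assembly, at 48583 bases.

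The strongest forewing-only locus with no shared base was nscaf2789:400109-458359 on the minus strand, at 231 FPM (224 to 238) or 8594 fragments. It has 2 exons of 2568 bases in all, separated by a single intron of 55683 bases, and its span runs across 14 other loci. The nearest hindwing exon of the same or unknown strand lay 124 bases from an exon of this locus. The second was nscaf2686:15085-17433, also minus strand with 2 exons, which had 57.3 FPM (53.9 to 60.8) on only 451 exon bases, with the nearest hindwing exon 2191 bases away. Longer chains were nscaf2842:1410005-1414608 (minus, 6 exons) at 28.6 (26.3 to 31.0), nscaf3031:4547434-4550136 (plus, 6 exons in 4 forms) at 23.4 (19.3 to 27.6) and nscaf2210:4984286-5001813 (minus, 7 exons in 3 forms) at 22.2 (19.1 to 25.2). All of these 3 lay outside every other locus. At nscaf1898:1762461-1766914, plus strand, a forewing-only locus of 27.9 shared 3985 bases with a minus-strand locus of its own library but none with the hindwing library.

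Members far from any exon of the other library were mainly hindwing-only and weak, with the deeper library and its larger number of loci moving the same way and their part not tested. At least 10000 bases from the nearest exon of the other library on any strand were 114 of 459 hindwing-only loci (24.8%) and 12 of 276 forewing-only loci (4.35%). Their median levels were 0.597 and 0.544 FPM. Only 26 and 2 of them reached 1 FPM, and 6 and 0 reached 5. At the other end, an exon of the other library on the same strand, or of unknown strand, came within 1000 bases of 111 hindwing-only loci (24.2%) and 131 forewing-only loci (47.5%). Within 100 bases it was 21 and 30.

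Some hindwing-only loci stood in rows. A run is a set of members of 1 wing and 1 strand that follow each other along the scaffold with no other locus, of either strand, starting between them. No limit was set on the distance between them, which reached 151210 bases in a hindwing pair on nscaf2948. The hindwing had 37 runs holding 97 of its 459 members, 29 of the runs being pairs. By this rule the forewing had 6 runs, all pairs, holding 12 of its 276 members. Runs of other loci were not counted. Assemblies break a weakly covered gene into pieces, so a run can be 1 gene, and its members then are not separate observations. Of the 114 distant hindwing-only loci 58 were in runs.

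The longest run was 13 adjacent hindwing-only loci on the minus strand of nscaf2800, from 1891777 to 1953450. It has 92 exons and 12335 exon bases, and includes the member with the most exons of all, nscaf2800:1934306-1943113, with 27 exons at 2.66 FPM (2.13 to 3.19). Each of the 13 loci lay between 0.425 and 2.66 FPM, and together they had 13.8, or 601 fragments. The forewing assembly had no exon of any strand over the 120684 bases between 1891011 and 2011696. The run itself spans 61674 of them, and from its end at 1953450 to 2011696 the hindwing assembly had no exon either. The loci on either side were not alike. The 5 nearest loci assembled in both libraries before the run were all higher in the hindwing, by 1.88 to 4.60 times with a median of 3.63. The 5 after it had ratios between 0.401 and 1.08, with a median of 1.01. The nearest before the run, nscaf2800:1888398-1891685, stood at 0.884 in the hindwing and 0.471 in the forewing library, and nscaf2800:1873883-1876537 at 10.2 and 2.22. The scaffold as a whole had 20 hindwing-only and 2 forewing-only members among 85 spliced loci (25.9%), the highest number of hindwing-only loci on any scaffold.

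The run with the highest summed level was 7 adjacent hindwing-only loci on the plus strand of nscaf3075, from 754693 to 814855, with 49 exons and 29.4 FPM in all, or 1278 fragments. Its members had 9, 6, 15, 4, 4, 7 and 4 exons in order along the scaffold. Their levels were 4.57, 1.09, 9.64, 1.18, 1.21, 2.89 and 8.80 FPM. The third, nscaf3075:773999-787370, is one of the most exon-rich members, and the last ends 865 bases from the nearest forewing exon. No forewing exon lay between 706936 and 815720. The run itself spans 60163 bases, and from 706936 to its start at 754693 the hindwing assembly had no exon either. Here the flanks were alike in both wings. The 5 nearest loci of both libraries had hindwing over forewing ratios of 0.814 to 1.18 before the run and 0.806 to 1.32 after it.

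**Figure D5:**
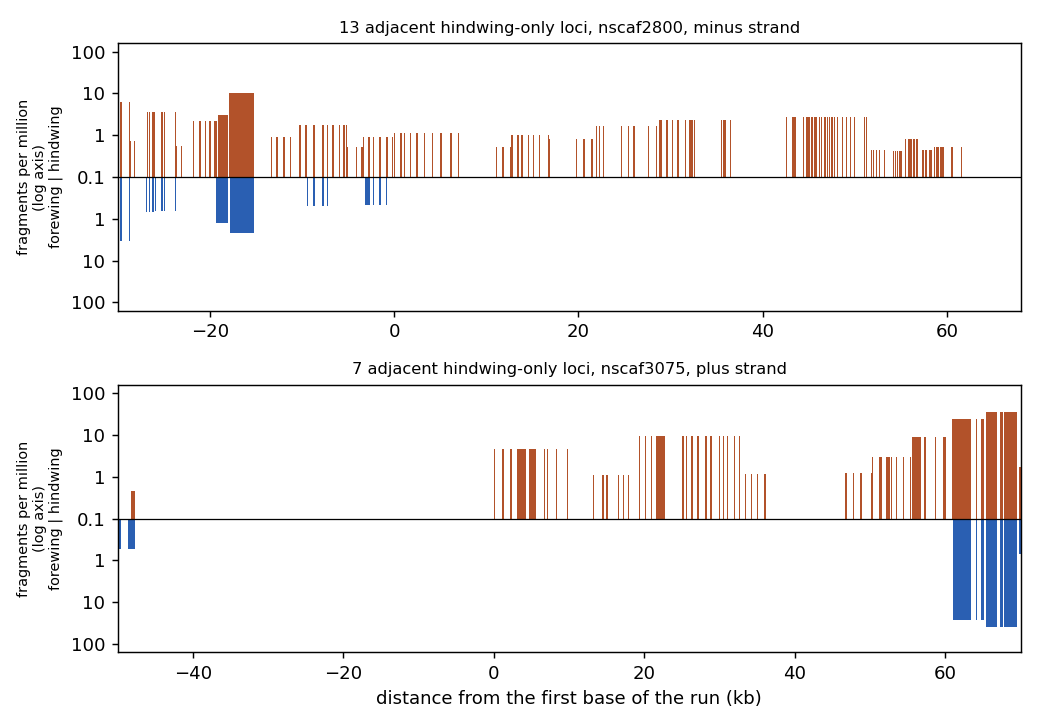
Exons along 2 runs of hindwing-only loci, each drawn at the level of its transcript (y axis, FPM, log scale), hindwing upward in brown and forewing downward in blue, against distance from the first base of the run in kb. The blue side is empty over both runs. Before the upper run the hindwing bars are taller than the forewing bars, by 1.88 to 4.60 times for the 5 nearest loci, while beside the lower run they are near equal.

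The remaining named hindwing run was a pair on the minus strand of nscaf2838, 288129-289297 with 2 exons at 8.51 FPM and 289433-298673 with 5 exons at 18.4. The locus of both libraries 137 bases before it stood at 49.7 in the hindwing and 76.5 in the forewing library. The second locus of the pair shares 282 exon bases with a plus-strand transcript of its own library. Its span runs across the plus-strand locus nscaf2838:294950-309009, at 46.1 FPM in the hindwing and 59.2 in the forewing library. The sums over both strands were 81.8 and 59.2. Another hindwing-only locus, starting at 298773 with 17.3 FPM, lies just after the pair. Forewing runs were pairs of lower level. The highest was on the plus strand of nscaf3106, 185700-190591 at 2.04 and 269942-281770 at 4.41, with 79350 bases between them. Of the 5 nearest loci of both libraries after it 4 were higher in the hindwing, with hindwing over forewing ratios of 0.996 to 3.57 and a median of 1.41, the direction opposite to that of the pair. The next was on the minus strand of nscaf2938, 310652-311656 at 2.95 and 311830-312386 at 0.632. Around the nscaf2938 pair the 5 nearest loci of both libraries before it were all higher in the forewing, with ratios of 0.532 to 0.726. Of the 5 after it 4 were higher in the forewing, and the ratios ran from 0.197 to 1.27. The third pair by summed level, on the plus strand of nscaf3093, 319913-323500 and 323936-326027, had levels of 0.847 and 0.833. Its neighbours had ratios of 0.749 to 1.09. Another forewing-only locus of the same strand, nscaf3093:258353-319842 with 10 exons at 1.96, ends just before this pair. The rule kept it out of the run because a locus of both libraries, 310697-310779, starts within its span.

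Adjacent members of opposite wings were also seen. In 16 cases a hindwing-only and a forewing-only locus followed each other on the same strand with no other locus starting between them. At nscaf3063 on the minus strand, a forewing-only locus at 5.28 FPM (79704) was followed 1441 bases on by a hindwing-only locus of 3 exons at 10.2 (86047-91481), and the latter lay 62 bases from a forewing exon of unknown strand. At nscaf2930 on the plus strand, a hindwing-only locus at 1.16 was followed after 1032 bases by a forewing-only locus at 9.60. Over the 16 cases the gap between the loci ran from 558 bases on nscaf2852 to 111559 on nscaf2767. In the closer pairs each library holds a transcript of the neighbourhood, over different bases.

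The members with the most exons were few and differed in kind. Beside those named above, nscaf2529:4889003-4916794 has 13 exons in the hindwing, and 40.2% of its exon bases are on the opposite strand in the forewing library. In the forewing the most exons were found in nscaf2852:1142017-1152037 (plus, 13 exons), at 1.06 FPM (0.708 to 1.42) and outside every other locus. It was followed 558 bases on by a hindwing-only locus at 0.448. Next came nscaf2828:1312122-1330079 (minus, 10 exons) at 46.1, with 45.6% of its exon bases on the opposite strand in the hindwing library and sums of 188 and 203 over both strands. The others were nscaf2823:2595291-2610780 (minus, 10 exons in 4 forms) at 11.2 and nscaf3093:258353-319842 (plus, 10 exons) at 1.96.

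The members of longest span each held a very long intron, the longest of each being 69948 to 148598 bases. In the hindwing, nscaf2953:2598754-2758233 (minus, 4 exons) spanned 159480 bases at 0.569 FPM and nscaf3072:1235673-1367709 (plus, 10 exons in 4 forms) spanned 132037 bases at 3.10. In the forewing, nscaf2951:1044576-1246309 (plus, 3 exons) spanned 201734 bases at 1.02 and nscaf2924:85763-241670 (minus, 4 exons) spanned 155908 bases at 0.390. They rested on 24.7, 135, 38.1 and 14.5 fragments. An intron of 10000 bases or more was present in 12.4% of hindwing-only and 9.78% of forewing-only loci, against 16.1% and 15.9% of spliced loci assembled in both.

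Members were spread over 186 of the 682 scaffolds with a spliced locus. On scaffolds that carried no transcript of the other library at all lay 20 hindwing-only and 8 forewing-only loci. The joining rule set the border closely for a few loci. Just inside it was nscaf2204:3576213-3603989, a hindwing-only locus at 0.333 FPM that came within 4 bases of a forewing exon, and nscaf2993:7369998-7375719, a forewing-only locus at 19.6 within 12 bases of a hindwing exon. Just outside it, nscaf1898:14957038-14961174, with levels of 0.552 in the hindwing and 0.605 in the forewing library, was joined by 5 shared bases. The deposited FPKM lay above its own upper bound for 36 hindwing-only and 58 forewing-only loci, which is why levels are taken from the bounds.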

How the data were processed

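Read pairs of the 2 libraries were mapped with TopHat and assembled by the authors with Cufflinks (2.1.1 per the submitters' processing notes), each library alone. The sources used here do not give the genome build. The deposited assemblies list exons with strand, FPKM, its confidence bounds and coverage, not scaled between the libraries. The deposited score column was not used.

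Depth was estimated as the number of fragments at which bounds times length become whole, and 96.5% of 13359 hindwing and 96.2% of 9111 forewing bounds under 30 fragments were whole within 0.05. Members, named loci and classes were chosen with earlier results of these data known. The named loci were, per wing, the 8 with the highest level, the 4 with the most exons, the 2 of longest span, the 3 highest outside other loci and the 3 runs of highest summed level, and others were named after their values were seen. Distances to the other assembly, the well-covered loci without shared bases and the neighbours of runs were likewise added after the data were seen. The joining was tested on simulated data. Intervals are Wilson or exact at 95%, and PCR copies were not marked, so they cover counting error only. They take loci as separate, though members of a run can be pieces of the same gene. Gene names, sequence and promoters were not analysed here. Work was done in scipy 1.17.1, pandas 2.3.3, numpy 2.4.6 and Python 3.11.15.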

Additional observations from a re-analysis of the deposited data

How the results depend on the processing

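No paired analysis was possible because each wing had 1 library. Of 99 values recomputed under 13 alternatives, 55 stayed within their limits (1.5-fold for numbers of loci, the counting interval of the value otherwise) and 44 moved. Numbers below are hindwing-only then forewing-only. Joining on either strand gave 389 and 226 loci, with medians of 0.597 and 0.679 FPM and 12.9% and 11.1% inside or across another locus, and joining overlapping spans gave 18.3% and 18.2% there. From 0.5 FPM, 302 hindwing-only loci were left, the medians were 1.09 and 1.27, and 33.8% and 33.3% were inside or across. From 1, there were 155 and 121 loci (56.2% hindwing-only) with medians of 6.49 and 4.56 and 52.9% and 50.4% inside or across, and from 5 there were 82 and 59 (58.2%), 17.4 and 19.6, and 78.0% and 66.1%. With 3 or more exons there were 264 and 129 loci (67.2% hindwing-only), and the hindwing median was 0.760. Allowing unspliced transcripts in the other library gave 716 and 678 loci (51.4%), medians of 1.16 and 2.40, 54.2% and 66.8% with 2 exons, and 21.1% of the forewing-only loci inside or across. Medians were 0.573 and 0.659 outside every other locus, 0.772 and 1.27 for transcripts of at least 300 exon bases (then 45.3% of forewing-only loci had 2 exons), and 0.777 and 1.31 from the deposited FPKM. Level filters and exon limits move these values by their own construction. Joining on either strand, or keeping only loci outside all others, likewise leaves out every member with exon bases shared on the opposite strand. For the other settings the cause was not tested. A lower bound above 0 left out no member, and a pseudocount could not enter. The lowest locus of any kind, spliced or not, rested on 11.0 fragments in each library, so the lack of a transcript does not show a level of 0.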
